A study of Mus musculus with 2 samples.

Results

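The genes of the NF-κB response and of its feedback, 35 of the 31053 genes measured, were examined in single leukocytes from *Ptgs*-/- melanomas on day 4. They are a list taken by gene symbol, and all 35 symbols were present. The tumor cells were *Braf* V600E-driven melanoma cells that lacked *Ptgs1* and *Ptgs2*, the genes of the cyclooxygenases COX-1 and COX-2 that make prostaglandins, and were grown in C57BL/6 mice 8 weeks old. Control hosts received no treatment. The NK cell-depleted hosts were given anti-NK1.1 (clone PK136, 200 µg) together with anti-asialo GM1 (30 µg) on days 0 and 2, to remove natural killer (NK) cells. Both antibodies can also bind other cells that carry these molecules. Both groups therefore shared the tumor genotype and the host strain, although for both samples the genotype label says wild type where title and design say knockout. CD45+ cells, that is leukocytes, were sorted from pooled tumors, and parental melanoma cells were spiked into both sorted samples. Each group is 1 library, so no difference below has a replicate check and no test was possible. All intervals are 95% intervals for counting error alone and do not cover the spread between tumors or libraries.

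After removal of cells of low quality, 5292 control and 4506 NK cell-depleted cells remained, with medians of 4170 and 4893 UMIs (unique molecular identifiers, each standing for 1 captured transcript). Both libraries shared 5 cell barcodes. Clusters were named from marker genes, and the suffix "-like" marks that these names were rebuilt here. Monocyte/macrophage-like cells numbered 3570 in control tumors and 3215 in NK cell-depleted ones, with 20050071 and 19068661 UMIs. Neutrophil-like cells numbered 357 and 454, with only 421572 and 602142 UMIs, so that counting error was far larger in them. The neutrophil-like cluster was led by *S100a8*, *S100a9*, *G0s2* and *Cxcr2*, and its 13 neutrophil markers summed to 60142 and 61221 UMIs per 1000000 UMIs of the class (CPM), against 258 and 278 in monocyte/macrophage-like cells.

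NF-κB is a family of transcription factors, dimers of NFKB1, NFKB2, RELA, RELB and REL, that are held in the cytoplasm by IκB proteins. Receptors for microbial products, IL-1 or TNF activate a kinase that marks IκB for destruction, and the freed dimers enter the nucleus and switch on genes of inflammation and cell survival. Many of the genes switched on encode brakes on the same pathway, among them IκBα (*Nfkbia*) and the ubiquitin-editing enzyme A20 (*Tnfaip3*), so that RNA of feedback genes is commonly read as a trace of recent signaling. In tumors, macrophages and neutrophils are main sources of such inflammatory RNA.

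The dimers bind a short DNA element, the κB site. RefSeq promoter sequences (build GRCm38.p6) were matched by symbol for 29 of the 35 genes. Within the 250 bases before an annotated start, the κB consensus of 10 bases, searched on both strands with overlapping matches counted by position, was found for 11 of these 29 genes (37.9%). It was found for 4.46% of all 27025 genes with such a sequence. A match is a description of the letters and not evidence of binding. The promoters of 5 genes that have a match and that the results below turn on are given. Each is the gene's strand, 5′ to 3′, with the matches in capitals. The windows of *Tnf* and *Icam1*, which the results also turn on, held 0 matches. *Nfkbia* (ENSMUSG00000021025; chr12:55492648-55492897, minus strand), *Rel* (ENSMUSG00000020275; chr11:23770970-23771219, minus strand) and *Tnfaip3* (ENSMUSG00000019850; chr10:19015411-19015660, minus strand) were lower in control monocyte/macrophage-like cells. *Sdc4* (ENSMUSG00000017009; chr2:164443189-164443438, minus strand) was the 1 member higher there. *Ccrl2* (ENSMUSG00000043953; chr9:111057519-111057768, minus strand) had opposite signs in the main pair of cell classes.
Nfkbia: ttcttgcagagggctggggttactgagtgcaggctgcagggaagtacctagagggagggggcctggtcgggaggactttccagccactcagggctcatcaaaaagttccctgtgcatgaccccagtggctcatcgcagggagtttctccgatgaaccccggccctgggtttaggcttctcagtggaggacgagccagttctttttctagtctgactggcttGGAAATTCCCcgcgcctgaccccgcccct
Rel: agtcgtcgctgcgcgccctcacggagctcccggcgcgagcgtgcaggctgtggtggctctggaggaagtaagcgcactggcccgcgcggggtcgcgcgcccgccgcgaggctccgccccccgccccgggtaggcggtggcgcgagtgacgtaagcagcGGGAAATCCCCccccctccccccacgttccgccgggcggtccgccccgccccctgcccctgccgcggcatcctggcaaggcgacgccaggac
Tnfaip3: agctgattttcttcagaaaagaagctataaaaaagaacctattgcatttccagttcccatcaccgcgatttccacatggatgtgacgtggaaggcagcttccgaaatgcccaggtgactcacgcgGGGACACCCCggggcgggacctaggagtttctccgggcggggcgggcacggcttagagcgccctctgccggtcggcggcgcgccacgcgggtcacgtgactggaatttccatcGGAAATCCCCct
Sdc4: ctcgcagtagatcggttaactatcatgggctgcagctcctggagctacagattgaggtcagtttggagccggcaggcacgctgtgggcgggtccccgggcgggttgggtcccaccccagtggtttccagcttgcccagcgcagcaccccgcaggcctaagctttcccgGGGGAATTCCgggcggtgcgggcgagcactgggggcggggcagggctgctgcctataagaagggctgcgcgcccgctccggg
Ccrl2: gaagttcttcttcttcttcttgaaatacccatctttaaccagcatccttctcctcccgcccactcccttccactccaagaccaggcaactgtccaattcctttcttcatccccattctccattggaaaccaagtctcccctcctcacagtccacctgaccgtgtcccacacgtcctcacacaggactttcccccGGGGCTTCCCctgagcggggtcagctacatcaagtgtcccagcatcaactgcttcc
The match of *Nfkbia* began 29 bases before the start, and that of *Sdc4* 82 bases before it. *Tnfaip3* had 2 matches, 125 and 12 bases before the start shown, and 0 before its other annotated start. The 2 matches of *Rel*, at 92 and 91 bases, overlapped. The sequence with a match shown for *Ccrl2*, at 56 bases, belongs to 1 of its 3 annotated starts. The matches were thus found upstream of members whose ratios between the libraries pointed in different directions.

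The first comparison asked how these genes differed between monocyte/macrophage-like cells from tumors with and without NK cells. Most of them were lower in the control library. Of 35 members, 18 (51.4%) were lower in control by over 0.32 on the log2 scale, the threshold used throughout, against 14.1% of the 11900 genes compared in these cells. The members were chosen with earlier results of these data known, so the comparison with all genes is not an independent check. Only *Sdc4* (2.86%) was higher past the threshold, against 19.3% of all genes. The median log2 ratio, control over NK cell-depleted, was -0.33 for the members and -0.01 for all genes, and 31 of 35 were below 0. The range ran from -0.73 for *Tnfaip3* to 0.36 for *Sdc4*, so the differences were of less than 2-fold. The mixture of cells within the class differed between the libraries too. With every cluster given the same weight in both libraries, 7 members were lower (*Nfkbib*, *Tnfaip3*, *Zc3h12a*, *Cd83*, *Plaur*, *Tnfaip2* and *Plek*), against 13.3% of all genes, and the members' median was -0.20.

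In neutrophil-like cells no such shift was found. Of 32 members with at least 20 UMIs over both libraries, 8 (25.0%) were lower in control and 3 (9.38%) were higher past the threshold, against 23.4% of the 4573 genes compared in either direction. The median log2 ratio was -0.04 for the members and -0.02 for all genes. *Tnip3* (5 control and 1 NK cell-depleted UMIs), *Cd83* (8 and 7) and *Sdc4* (2 and 1) were too rare there to be compared. Among the 11 members past the threshold, the counting interval left out a ratio of 1 for *Tnfaip3*, *Tnfaip2* and *Tnf* only.

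**Figure D1:**
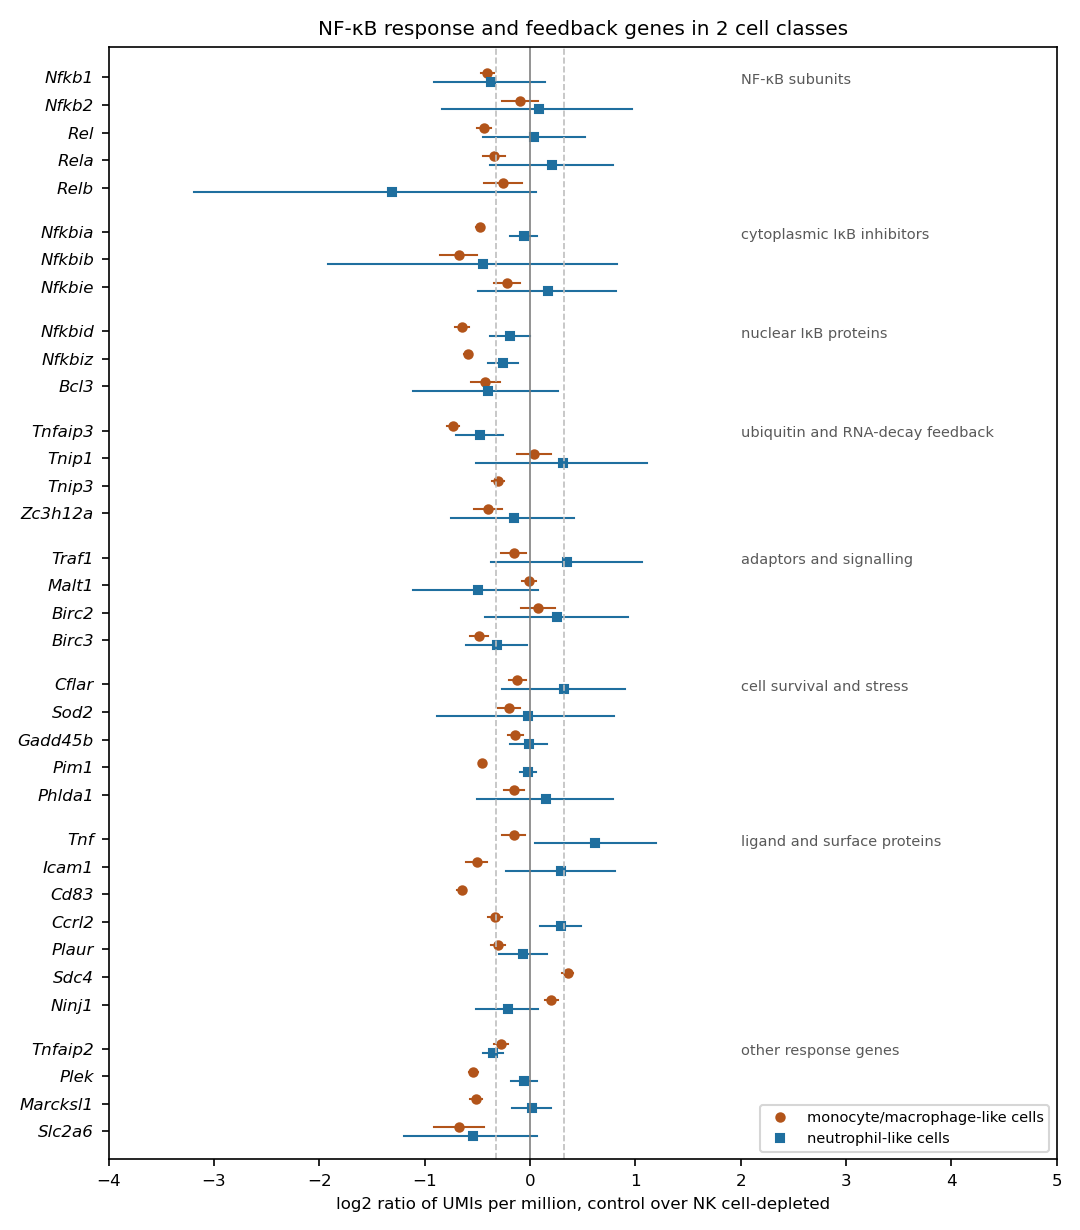
Log2 ratios (control over NK cell-depleted) of CPM for the 35 genes, grouped by role, in monocyte/macrophage-like (circles) and neutrophil-like cells (squares), with 95% counting intervals. Dashed lines mark the threshold of 0.32 in both directions. Circles lie left of 0 for 31 of 35 genes, while the squares scatter around 0 with wider intervals and are absent for *Tnip3*, *Cd83* and *Sdc4*.

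Of the genes of the NF-κB subunits, 3 of 5 were lower in control monocyte/macrophage-like cells. *Nfkb1*, which encodes the p105 precursor of p50, had 3802 control and 4792 NK cell-depleted UMIs, or 190 and 251 CPM, a 1.33-fold lower level in control (1.27 to 1.38). *Rela*, which encodes the transactivating subunit p65, had 1347 and 1622 UMIs, or 67.2 and 85.1 CPM, 1.27-fold lower (1.18 to 1.36). *Rel*, which encodes c-Rel, stood at 168 and 227 CPM, 1.35-fold lower (1.29 to 1.41). *Relb* and *Nfkb2*, the subunits of the non-canonical branch, had log2 ratios of -0.26 and -0.09 and did not pass the threshold. In neutrophil-like cells *Nfkb1* had 48 and 89 UMIs, or 114 and 148 CPM, and the interval of the 1.30-fold lower level (0.904 to 1.88) included 1. There *Rela* had 47 and 58 UMIs, or 111 and 96.3 CPM, with a ratio of 1.16 (0.771 to 1.73). *Relb*, at 5 and 19 UMIs, gave the lowest log2 ratio of the members in these cells, -1.31, on very few counts.

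Of 6 IκB genes, 5 were lower past the threshold in control monocyte/macrophage-like cells. *Nfkbia* had 9028 and 11922 UMIs, or 450 and 625 CPM, 1.39-fold lower in control (1.35 to 1.43). *Nfkbib*, which encodes IκBβ, had 463 and 704 UMIs, or 23.1 and 36.9 CPM, 1.60-fold lower (1.42 to 1.80). *Nfkbie*, which encodes IκBε, had a log2 ratio of -0.22 and did not pass the threshold. The nuclear members of the family, which act on NF-κB dimers bound to DNA, were lower in 3 of 3. *Nfkbid* had 2768 and 4117 UMIs, or 138 and 216 CPM, 1.56-fold lower (1.49 to 1.64). *Nfkbiz*, which encodes IκBζ and is needed for a set of late response genes, had 8347 and 11912 UMIs, or 416 and 625 CPM, a ratio of 0.666 (0.648 to 0.685). *Bcl3* stood at 37.7 and 50.5 CPM, 1.34-fold lower (1.22 to 1.48). Across the clusters taken at the same weight these differences were smaller, with log2 ratios of -0.28 for *Nfkbia*, -0.27 for *Nfkbid*, -0.19 for *Nfkbiz* and -0.05 for *Bcl3*.

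In neutrophil-like cells *Nfkbia* was nearly level, with 871 and 1297 UMIs, or 2066 and 2154 CPM, and a ratio of 0.959 (0.879 to 1.05). *Nfkbiz* had 622 and 1061 UMIs, or 1475 and 1762 CPM, a ratio of 0.837 (0.757 to 0.925) in the same direction as in monocyte/macrophage-like cells. *Nfkbid* stood at 899 and 1025 CPM, a ratio of 0.877 (0.770 to 0.999). *Bcl3*, at 29 and 55 UMIs, and *Nfkbib*, at 8 and 16 UMIs, were past the threshold, and both intervals included 1 (0.463 to 1.20 and 0.265 to 1.77).

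*Tnfaip3*, which encodes A20, showed the lowest ratio of all 35 genes in monocyte/macrophage-like cells. It had 3905 and 6175 UMIs, or 195 and 324 CPM, 1.66-fold lower in control (1.60 to 1.73). It was lower in control neutrophil-like cells as well, with 248 and 493 UMIs, or 588 and 819 CPM, 1.39-fold lower (1.19 to 1.63). *Zc3h12a*, which encodes the RNase regnase-1 that degrades inflammatory mRNAs, was 1.32-fold lower (1.21 to 1.44) in monocyte/macrophage-like cells. *Tnip1* and *Tnip3*, partners of A20, had log2 ratios of 0.04 and -0.31 and did not pass the threshold. In neutrophil-like cells *Zc3h12a* and *Tnip1* did not pass the threshold either, with log2 ratios of -0.15 and 0.31.

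Adaptors and survival genes differed less. In monocyte/macrophage-like cells *Birc3*, which encodes the ubiquitin ligase cIAP2, stood at 98.5 and 137 CPM, 1.40-fold lower in control (1.32 to 1.48). *Malt1*, a paracaspase of the pathway, had 3516 and 3362 UMIs, or 175 and 176 CPM, a ratio of 0.995 (0.948 to 1.04). *Traf1*, a TNF receptor adaptor, stood at 59.0 and 65.7 CPM, and *Birc2* had a log2 ratio of 0.08. Of 5 survival and stress genes only *Pim1*, a kinase gene, passed the threshold, with 913 and 1251 CPM, 1.37-fold lower (1.34 to 1.40). *Cflar*, which encodes the caspase-8 inhibitor FLIP, stood at 129 and 140 CPM. *Sod2*, *Gadd45b* and *Phlda1* had log2 ratios from -0.20 to -0.14.

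In neutrophil-like cells *Traf1*, with 33 and 37 UMIs, or 78.3 and 61.4 CPM, had a ratio of 1.27 (0.772 to 2.09). *Cflar*, with 49 and 56 UMIs, or 116 and 93.0 CPM, had a log2 ratio of 0.32 and an interval of 0.834 to 1.87 for its ratio. *Malt1*, with 38 and 77 UMIs, or 90.1 and 128 CPM, had a ratio of 0.705 (0.465 to 1.05). Each of these intervals included 1. *Pim1*, the member with the most UMIs in these cells, stood at 5596 and 5665 CPM, a ratio of 0.988 (0.937 to 1.04). *Birc3* stood at 382 and 475 CPM, a ratio of 0.804 (0.659 to 0.979). The members not given singly in these cells, *Nfkb2*, *Rel*, *Nfkbie*, *Birc2*, *Sod2*, *Gadd45b*, *Phlda1*, *Plaur* and *Ninj1*, had log2 ratios from -0.21 to 0.26, and each interval included a ratio of 1.

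The ligand and surface proteins had log2 ratios from -0.65 to 0.36 in monocyte/macrophage-like and from -0.21 to 0.62 in neutrophil-like cells. *Tnf*, a cytokine that both activates NF-κB and is produced in response to it, had 1279 and 1354 UMIs in monocyte/macrophage-like cells, or 63.8 and 71.0 CPM, a ratio of 0.898 (0.832 to 0.970). In neutrophil-like cells it had 56 and 52 UMIs, or 133 and 86.4 CPM, a ratio of 1.54 (1.04 to 2.29). There the *Tnf* UMIs lay in few cells. The 5 cells with the most held 51.8% of the control and 32.7% of the NK cell-depleted *Tnf* UMIs, and without those 5 cells of each library the log2 ratio was 0.15 in place of 0.62.

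*Cd83*, a surface protein of activated antigen-presenting cells, had 6274 and 9357 UMIs in monocyte/macrophage-like cells, or 313 and 491 CPM, 1.57-fold lower in control (1.52 to 1.62). *Icam1*, an adhesion molecule for leukocytes, had 1365 and 1843 UMIs, or 68.1 and 96.7 CPM, 1.42-fold lower (1.32 to 1.52). Its log2 ratio of -0.51 became -0.06 with clusters at the same weight. *Ccrl2*, a receptor that presents the chemoattractant chemerin, stood at 159 and 200 CPM, 1.26-fold lower (1.20 to 1.32). *Plaur*, the urokinase receptor, and *Ninj1*, a mediator of plasma membrane rupture, had log2 ratios of -0.30 and 0.20. *Sdc4*, which encodes the proteoglycan syndecan-4, had 6955 and 5157 UMIs, or 347 and 270 CPM, 1.28-fold higher in control (1.24 to 1.33), and its log2 ratio of 0.36 became 0.02 with clusters at the same weight. In neutrophil-like cells *Icam1* had 60 and 70 UMIs, or 142 and 116 CPM, a ratio of 1.22 (0.852 to 1.75). *Ccrl2* had 400 and 467 UMIs there, or 949 and 776 CPM, a ratio of 1.22 (1.07 to 1.40) just under the threshold.

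Of the remaining 4 response genes, 3 were lower in control monocyte/macrophage-like cells. *Plek*, which encodes the protein kinase C substrate pleckstrin, stood at 446 and 647 CPM, 1.45-fold lower (1.41 to 1.49). *Marcksl1*, another kinase C substrate, stood at 191 and 273 CPM, 1.43-fold lower (1.37 to 1.49). *Slc2a6*, a member of the glucose transporter family, had 249 and 377 UMIs, or 12.4 and 19.8 CPM, 1.59-fold lower (1.35 to 1.88). *Tnfaip2* had a log2 ratio of -0.28. In neutrophil-like cells *Tnfaip2* had 1387 and 2524 UMIs, or 3290 and 4192 CPM, 1.27-fold lower (1.19 to 1.36). *Slc2a6* had 33 and 69 UMIs there, or 78.3 and 115 CPM, and an interval of 0.437 to 1.05 for its ratio of 0.683. *Plek* and *Marcksl1* were close to level in these cells, at log2 ratios of -0.05 and 0.02.

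The next question was whether the libraries differed in opposite directions in neutrophil-like and monocyte/macrophage-like cells. Of the 32 members compared in both, 0 were past the threshold as higher in control neutrophil-like and as lower in control monocyte/macrophage-like cells, against 1.5% of the 4546 genes compared in both. The reverse pattern was also found in 0 members, against 0.792% of all genes. By sign alone, 11 members (34.4%) were above 0 in neutrophil-like and below 0 in monocyte/macrophage-like cells, against 26.0% of all genes. The reverse signs were seen for *Ninj1*, while 18 members were below 0 in both and 2 above 0 in both. The ratio was larger in neutrophil-like cells for 28 of 32 members, against 58.4% of all genes, and the median difference of the log2 ratios was 0.27, against 0.09 for all genes. These values used ratios over all monocyte/macrophage-like cells, whose mixture of clusters differed between the libraries. With clusters at the same weight the members' median there was -0.20 in place of -0.33. The comparison of the 2 classes was not repeated at that weight, so the part of the mixture in it was not tested.

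Only for *Tnf* and *Ccrl2* did the signs differ with both counting intervals leaving out a ratio of 1. The share of all genes with this pattern was not computed. The log2 ratios of *Tnf* were 0.62 in neutrophil-like and -0.15 in monocyte/macrophage-like cells, and those of *Ccrl2* were 0.29 and -0.33. For *Tnf* the sign in monocyte/macrophage-like cells depended on how cells were grouped, with 0.11 when clusters had the same weight and 0.14 when cells were assigned one by one from their markers. *Icam1*, with 0.29 and -0.51, was past the threshold in opposite directions under 6 of 16 other ways of processing, as given in the closing section.

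Within monocyte/macrophage-like cells, 9 clusters held 50 or more cells of each library and did not behave alike. The members' median log2 ratio was below 0 in 8 of them, from -0.32 in cluster 13 (led by *Retnla*, *Il6* and *Lyz1*) to -0.15 in cluster 2 (led by *Gpnmb* and *Mmp13*). In cluster 4, the *Ly6c2*+ cells also led by the interferon-induced chemokine *Cxcl10*, the median was 0.01. Cluster 13 had 18 of 35 members lower and 0 higher past the threshold, against 24.6% and 20.1% of all genes in it. Cluster 4 had 4 lower (*Nfkbid*, *Tnfaip3*, *Cd83* and *Plek*) and 7 higher (*Tnip1*, *Malt1*, *Birc2*, *Gadd45b*, *Tnf*, *Icam1* and *Sdc4*), against 22.9% and 17.3%. The share of these clusters among monocyte/macrophage-like cells differed between the libraries. Cluster 4 made up 8.21% of control and 19.4% of NK cell-depleted cells, cluster 3 (led by *Ccl8* and *Lyve1*) 9.8% and 18.8%, cluster 1 (led by *Pf4*) 20.6% and 11.5%, and cluster 9 (led by *Dcstamp*) 12.2% and 6.07%.

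Some members had log2 ratios of 1 sign in every cluster, although none passed the threshold in all 9. The share of all genes with 1 sign in every cluster was not computed, and every cluster came from the same pair of libraries. *Nfkbia*, *Tnfaip3*, *Pim1*, *Cd83*, *Plaur*, *Tnfaip2* and *Plek* had log2 ratios below 0 in 9 of 9 clusters. *Pim1* passed the threshold in 3 of them, *Nfkbia* and *Plaur* in 4, and *Cd83* and *Tnfaip2* in 6. *Nfkbia* ranged from -0.55 in cluster 9, with 462 control and 679 NK cell-depleted CPM, to -0.10 in cluster 7, with 487 and 521. *Tnfaip3* passed the threshold in 7 of 9 clusters, and ranged from -0.85 in cluster 13, with 351 and 632 CPM, to -0.08 in cluster 7, with 193 and 204. *Plek* passed it in 8 of 9, all except cluster 6. Cluster 7 was led by the heat shock genes *Hspa1b* and *Hspa1a* and had the fewest UMIs per cell of the 9, with medians of 1405 and 1438.

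Other members changed sign between clusters. *Tnf* was below 0 in 4 of 9 clusters and ranged from -0.72 in cluster 9, with 54.3 and 89.5 CPM, to 1.15 in cluster 6 (led by *Ace* and *Chil3*), with 44.9 and 20.2. In cluster 4 *Tnf* stood at 102 and 73.7 CPM, a ratio of 1.39 (1.15 to 1.67), and in cluster 1 at 57.9 and 36.6, a ratio of 1.58 (1.26 to 2.00). *Icam1* ranged from -0.67 in cluster 13, with 176 and 280 CPM, to 0.74 in cluster 2, with 37.1 and 21.9. *Malt1*, level over the whole class, was 1.79-fold higher in control (1.55 to 2.06) in cluster 4 and below 0 in the other 8 clusters. *Sdc4* was 12.4-fold higher (5.54 to 32.4) in control cluster 6, on 46 and 7 UMIs, and between -0.23 and 0.58 in the others. Thus a near-level or modest ratio over all monocyte/macrophage-like cells covered clusters past the threshold in both directions for *Tnf*, *Icam1* and *Malt1*. *Sdc4* was past it as higher in 3 clusters and as lower in 0.

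**Figure D2:**
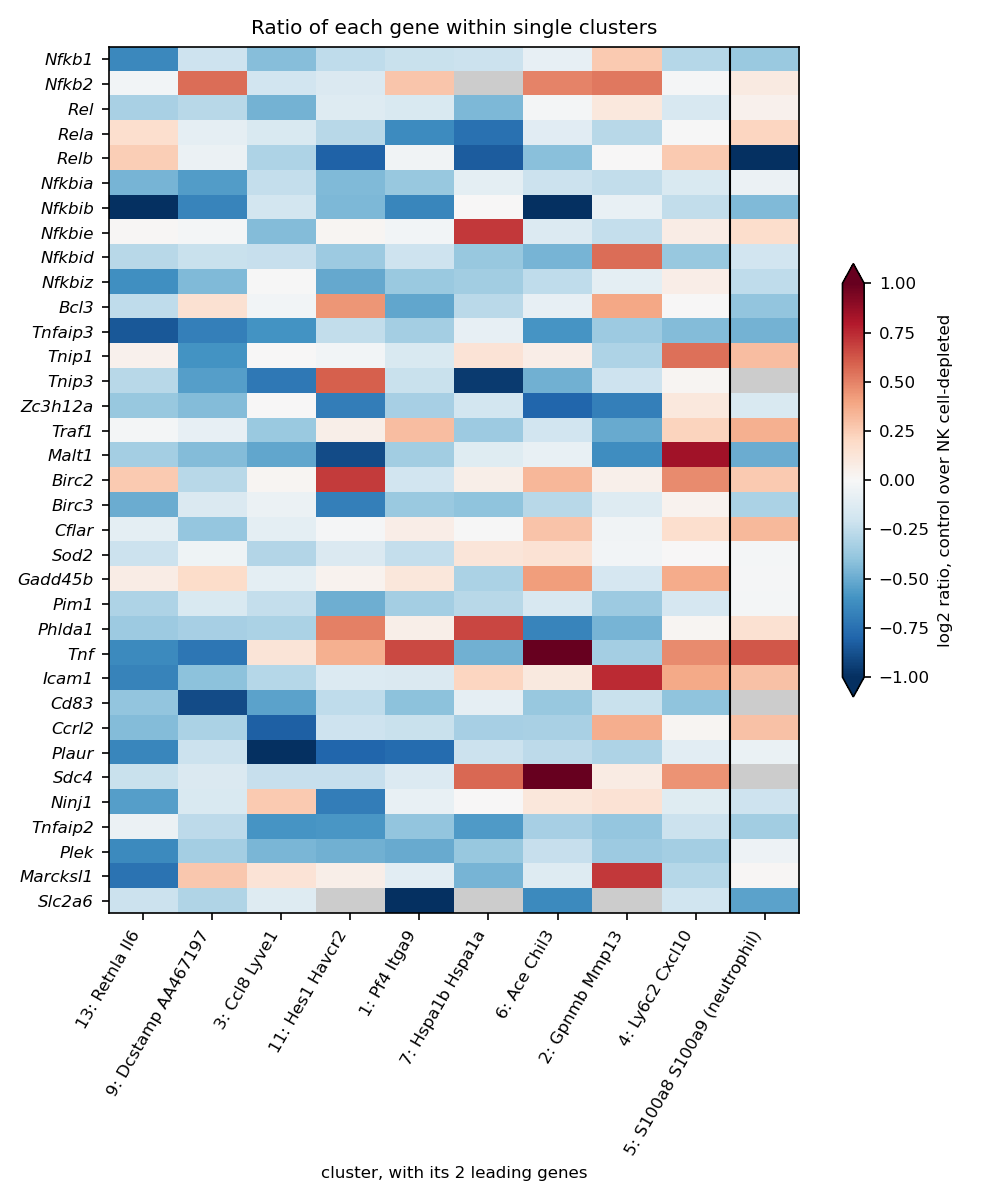
Log2 ratios (control over NK cell-depleted) of each of the 35 genes in 9 monocyte/macrophage-like clusters (50 or more cells in each library) and in the neutrophil-like cluster 5, as colors that end at 1 in both directions (grey, under 20 UMIs in sum). Clusters are ordered by the median of the genes, from -0.32 in cluster 13 to 0.01 in cluster 4.

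Markers of cell state moved with these ratios. In monocyte/macrophage-like cells, 13 of 13 monocyte markers had ratios below 0, with a summed level of 5803 CPM in control and 7380 in NK cell-depleted cells. Of 14 macrophage markers, 12 were above 0, with sums of 11916 and 8910. The 10 NK markers summed to 73.2 and 19.6 CPM, with 0 and 6 of them at 0 UMIs, and the 5 erythroid markers, hemoglobin genes included, to 6.13 and 147. In neutrophil-like cells the NK markers summed to 192 and 1.66, with 1 and 9 of 10 at 0, the 13 monocyte markers to 1914 and 1810 and the 14 macrophage markers to 458 and 379. The median share of mitochondrial UMIs was 2.75% and 3.66% in monocyte/macrophage-like and 0.395% and 0.47% in neutrophil-like cells. The part of these differences in the ratios of the members was not tested, apart from the equal weighting of clusters given above.

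The level of a gene was then compared between classes. In the control library, 22 of 35 members were higher in CPM in neutrophil-like than in monocyte/macrophage-like cells, with intervals that did not overlap, 5 were lower and 8 overlapped. In the NK cell-depleted library these numbers were 17, 8 and 10. The same counts over all genes were not computed, so whether the members differ from genes in general was not tested. *Nfkbia* was 4.59-fold higher in neutrophil-like cells of the control library and 3.45-fold higher in those of the other. *Tnfaip2* was 19.1-fold and 20.1-fold higher, *Pim1* 6.13-fold and 4.53-fold, and *Nfkbid* 6.51-fold and 4.75-fold. *Cd83* was among the genes with the lower level in neutrophil-like cells, at 19.0 and 11.6 CPM in neutrophil-like against 313 and 491 in monocyte/macrophage-like cells, and *Sdc4* at 4.74 and 1.66 against 347 and 270. In CPM, many members were thus a larger part of the RNA counted in neutrophil-like cells. The total there was much smaller, with medians of 1156 and 1298 UMIs per cell against 5111 and 5490.

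Eosinophil-like cells (8 and 71) were left out of the order of classes. The share of all genes highest in each class was not computed, so the counts that follow have no background. Migratory dendritic cell-like cells, which mature and travel to lymph nodes, had the highest level of 13 members in control cells, 7 of them with an interval apart from the next class, and of 13 members in NK cell-depleted cells, 6 of them apart. *Rel*, *Relb*, *Traf1*, *Birc2*, *Cd83* and *Marcksl1* were highest there with intervals apart in both libraries. *Rel* stood at 1095 and 1373 CPM and *Relb* at 549 and 548. The unnamed cluster 17, of 55 and 36 cells led by *Gm5483*, *Cxcl3* and *Hcar2*, was highest for 13 members in control and 11 in NK cell-depleted cells. Its RNA held 4340 and 4152 *Nfkbia* CPM, 698 and 271 for *Tnf*, and 1760 and 2821 for *Ccrl2*. *Gm5483* and *Acod1* were among the leading genes of this cluster and of the neutrophil-like cluster 5. Its medians were 1147 and 1211.5 UMIs per cell, against 1156 and 1298 in neutrophil-like cells. At resolution 0.5 it merged with the neutrophil-like cells, 412 and 490 together, and their log2 ratio of *Tnf* was then 1.08. With finer clustering it stayed apart. It was left unnamed because 0 marker genes were among its first 50. Counted apart from it, neutrophil-like cells were highest for 5 and 6 members. The order with both joined was not computed. Neutrophil-like cells were highest, with intervals apart in both libraries, for *Nfkbid*, *Pim1* and *Tnfaip2*. *Tnip3* was highest in conventional dendritic cell-like cells, with 457 and 719 CPM.

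**Figure D3:**
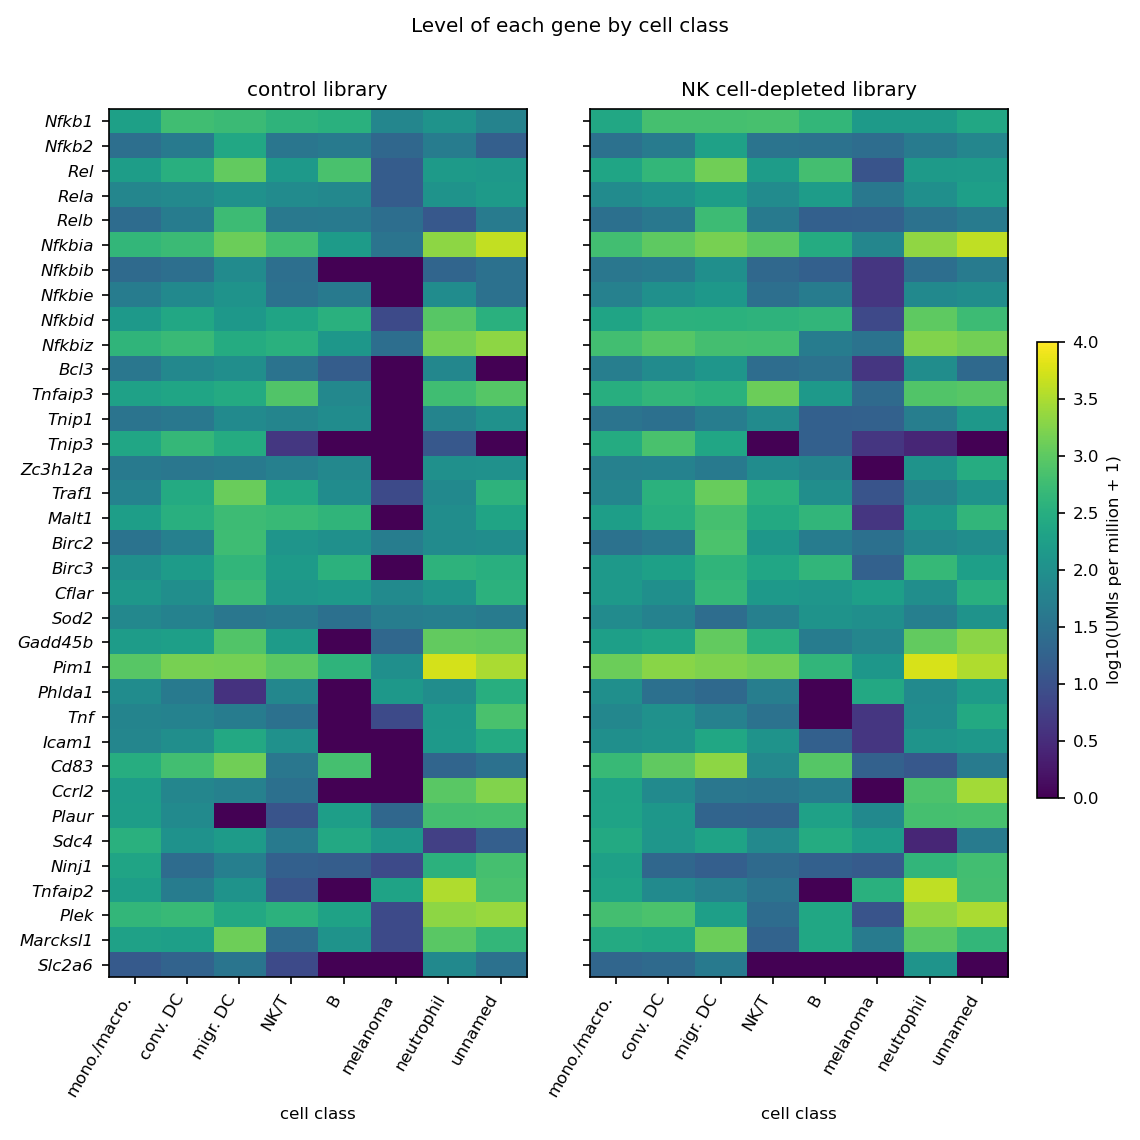
Levels of the 35 genes by cell class in the control and the NK cell-depleted library, as log10 of CPM plus 1. Migratory dendritic cell-like cells and the unnamed cluster 17 hold the highest level of 26 of 35 genes in control and 24 of 35 in NK cell-depleted cells. Cluster 17 is counted apart from the neutrophil-like cells, with which it merged when clustering was coarser. The share of all genes highest there was not computed.

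Conventional dendritic cell-like cells (305 and 353), which present antigen to T cells, resembled monocyte/macrophage-like cells in direction. Of 35 members, 19 (54.3%) were lower in control and 3 higher past the threshold, against 19.9% and 19.3% of 8970 genes, with a median log2 ratio of -0.35. *Nfkbia* stood at 530 and 1005 CPM, 1.90-fold lower in control (1.76 to 2.05), and *Tnfaip3* at 227 and 426, 1.87-fold lower (1.66 to 2.11). *Tnf*, with 98 and 236 UMIs, or 57.6 and 104 CPM, was 1.80-fold lower (1.42 to 2.30). *Cd83* stood at 617 and 1061 CPM, 1.72-fold lower (1.60 to 1.85). The intervals of the ratios of *Nfkbia* and *Tnf* did not overlap with those in monocyte/macrophage-like cells, while those of *Tnfaip3* and *Cd83* did.

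Migratory dendritic cell-like cells (60 and 47) showed 10 of 33 members lower and 8 higher, against 31.6% and 22.7% of 3813 genes. Among them *Nfkbid* stood at 134 and 353 CPM, 2.63-fold lower in control (1.83 to 3.82), and *Nfkbiz* at 283 and 638, 2.25-fold lower (1.74 to 2.92). The ratio furthest from 1 was that of *Ninj1*, 3.50 (1.15 to 14.2), on 18 and 4 UMIs. In NK/T-like cells (839 and 225), 18 of 33 members were lower and 5 higher, against 27.8% and 28.4% of 8539 genes. The antibodies were given to remove NK cells, so the make-up of this class and the library cannot be told apart. *Plek*, for example, had 742 and 14 UMIs there, or 370 and 24.6 CPM. In melanoma-like cells (51 and 70), 9 of 10 members compared were lower, where 50.5% of 3018 genes were lower and 15.9% higher. The median log2 ratio was -0.94 for the members and -0.34 for all genes. Parental melanoma cells were spiked into both sorted samples, so this class can hold cells that never grew in these hosts. Their share of the class was not tested. Cells here had medians of 1687 and 2021.5 UMIs. With the caps of 15000 UMIs and 4000 genes lifted, the melanoma-like cluster had 114 and 250 cells, with medians of 27709 and 27310.5 UMIs. B-like cells (47 and 35) had 12 members with enough UMIs, and for 0 of them did the interval leave out 1.

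Further genes of the pathway were taken from lists. In monocyte/macrophage-like cells, 4 of 29 signaling components (13.8%) were lower past the threshold and 0 higher, against 14.1% and 19.3% of all genes, with a median log2 ratio of -0.15. Of 21 receptors and adaptors that feed the pathway, 5 (23.8%) were lower and 1 higher, the latter *Il1r1* on 17 and 12 UMIs with an interval that included 1. *Myd88*, the adaptor of Toll-like and IL-1 receptors, had 1596 and 2283 UMIs, or 79.6 and 120 CPM. Of 18 cytokine and chemokine targets with enough UMIs, 6 (33.3%) were lower and 4 (22.2%) higher, 3 of the latter with an interval that left out 1, and the median was -0.02. *Il10* (24.0 and 46.5 CPM) and the neutrophil attractant *Cxcl1* (32.6 and 53.6) were lower in control, while the acute phase gene *Saa3* (39.5 and 15.7) and *Nos2* (9.82 and 5.98), which encodes inducible nitric oxide synthase, were higher. This list, which holds enzyme genes such as *Nos2* too, thus held differences in both directions.

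Immediate early genes, which many stimuli and the dissociation of tissue induce within minutes, moved with the members in monocyte/macrophage-like cells. Of 27, 16 (59.3%) were lower in control and 1 higher past the threshold, against 14.1% and 19.3% of all genes. Their median log2 ratio was -0.36, against -0.01 for all genes. *Nr4a1* stood at 434 and 889 CPM, *Dusp2* at 53.3 and 92.6, *Nr4a2* at 229 and 370, and the phosphatase gene *Dusp1* at 2580 and 4013. Of 10 heat shock genes, 0 were lower and 1 was higher, against the same 14.1% and 19.3% of all genes. In neutrophil-like cells 2 of 25 immediate early genes were lower and 3 higher, against 23.4% of all genes in either direction, with a median of -0.07, and *Ier3*, an early NF-κB target, stood at 2443 and 1584 CPM. There 5 of 9 heat shock genes were higher in control, 2 of them with an interval that left out 1, and the median was 0.51. Melanoma-like cells can include spiked cells. In them 15 of 17 immediate early genes were lower and 1 higher, against 50.5% and 15.9% of all genes. The median log2 ratio of these early genes was -1.05, against -0.34 for all genes. The part of these genes in the ratios of the members was not tested.

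**Figure D4:**
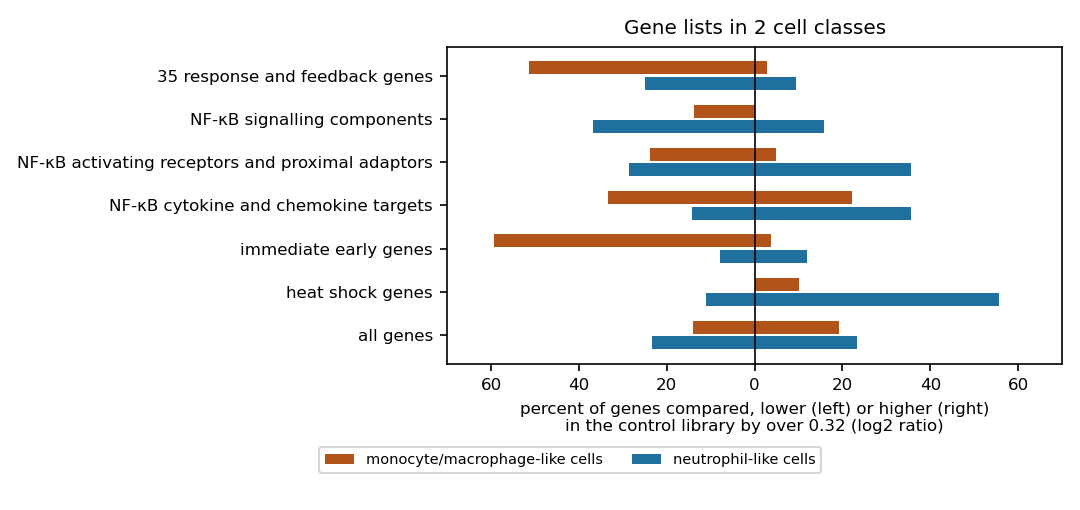
Percent of the genes compared in each list that were lower (left) or higher (right) in the control library past the threshold, in monocyte/macrophage-like and neutrophil-like cells. In monocyte/macrophage-like cells 51.4% of the 35 genes and 59.3% of immediate early genes were lower, against 14.1% of all genes. The lists were chosen with earlier results of these data known.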

How the data were processed

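Leukocytes sorted on day 4 were profiled by droplet sequencing of RNA 3′ ends, with 16000 cells loaded, 11 cycles of cDNA amplification and 14 of index PCR per library. The authors deposited UMI counts per gene and cell, without further normalization, the output of Cell Ranger for the cells it called. The header of the count files names Cell Ranger 3.0.2, the study's methods name another release, and the submitters' processing notes name build mm10. A deposited table of normalized values was not used. All results rest on the counts.

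Groups came from the sample titles. Cells were kept that had 500 to 15000 UMIs, from 200 to 4000 genes and no more than 10% of UMIs from mitochondria (9798 of 11651), with 24810009 control and 23245982 NK cell-depleted UMIs. No cell annotation was used, so differences from the study may come from rebuilt names. Log2(CPM + 1) values of the 2000 genes that varied most, each found in 10 or more cells, without the 35 members and the other lists, gave 15 principal components, a graph of 20 neighbors and Leiden clusters at resolution 1 (scanpy 1.11.5, leidenalg 0.10.2, igraph 0.11.9, scikit-learn 1.9.0). A cluster took the name of the marker list with the most genes among its first 50, with at least 3 above the other cells. Clusters not settled in this way were ranked again, against named cells outside the monocyte/macrophage-like class only. Clusters 2, 7, 9, 11, 13 and 16 took the name monocyte/macrophage-like in this later round. The naming limits were chosen with the clusters known. Scrublet called 41 (0.775%) and 31 (0.688%) cells as doublets, few for this loading. They were kept, and a marker-based removal served as an alternative.

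For every class and library, UMIs were added up and scaled to 1000000 (CPM). Log2 ratios had 0.5 UMI added to each sum. Genes with 20 or more UMIs in sum were compared, and a log2 ratio past 0.32 in either direction was called a difference. Sums carry exact Poisson and ratios exact conditional binomial 95% intervals (scipy 1.17.1), for counting error only. The code was tested on simulated data. Markers were ranked by fold with 5 CPM added, among genes in at least 10% of a cluster's cells. The members and all lists were chosen with earlier results of these data known. Named with all values were *Tnf*, *Nfkb1*, *Rela*, *Nfkbia*, *Tnfaip3*, *Nfkbiz*, *Icam1*, members past this threshold in opposite directions and, per class, the 5 with the largest fold each way among those with at least 50 UMIs. From other lists at most 4 genes past 1.5-fold with at least 100 UMIs were named. *Ccrl2*, *Rel*, *Pim1*, *Plek* and further members, *Ier3*, and the genes in the cluster accounts were named after their values were seen. Alternatives changed cell filters, clustering, cell calls, weights, free RNA, thresholds and depth.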

Additional observations from a re-analysis of the deposited data

Results flagged for a closer look

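Genes for which the libraries differed in opposite directions in neutrophil-like and monocyte/macrophage-like cells, with both counting intervals leaving out a ratio of 1, are *Tnf* and *Ccrl2*. The log2 ratio of *Tnf*, control over NK cell-depleted, was 0.62 in neutrophil-like and -0.15 in monocyte/macrophage-like cells. The first value was 0.15 without the 5 cells richest in *Tnf* of each library. It was 1.08 with coarser clustering, where the unnamed cluster 17 joined the neutrophil-like cells. The second value was 0.14 with cells called one by one and 0.11 with clusters at the same weight. For *Ccrl2* the log2 ratio was 0.29 in neutrophil-like and -0.33 in monocyte/macrophage-like cells. The latter lay just past the threshold of 0.32, and *Ccrl2* was not past it with cells called one by one, without likely doublets, in thinned cells or with clusters at the same weight, nor past 1.5-fold. With 1 library per group the difference between the classes was not tested for either gene. The share of all genes that meet the same condition was not computed.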

How the results depend on the processing

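Over 16 alternatives, 6 to 22 of 35 members were lower in control monocyte/macrophage-like cells, against 18 as reported, with 7 when every cluster had the same weight and 6 when a difference meant over 1.5-fold (3.66% of all genes). The members' median log2 ratio there lay between -0.36 and -0.20, the latter with clusters at the same weight, and in neutrophil-like cells between -0.10 and -0.00486. The count of members higher in control neutrophil-like cells, reported as 3, was 5 at cluster resolution 0.5 and with the stricter cell filter, 6 with cells called one by one and with no minimum of UMIs, 7 with cells thinned to 1000 UMIs and 1 beyond 1.5-fold. The count of members in opposite directions, reported as 0, was 1 under 8 alternatives. The member was *Icam1* at resolution 0.5, with all genes kept in clustering, without upper limits on UMIs and genes, with the stricter filter, with cells called one by one and without the 5 cells richest in each gene. It was *Rela* in thinned cells and *Cd83* with no minimum of UMIs. The cause was not tested. Of 416 further values for 16 named members, 364 moved by less than their counting interval, 52 moved by more and 0 called values reversed. The marker-based removal of doublets kept 1277 of 3570 and 978 of 3215 monocyte/macrophage-like cells. No paired analysis was possible because each group has 1 library, and for the same reason no replicate could be left out. Of the 2 classes compared above, depth limits the neutrophil-like values more, where 32 of 35 members reached 20 UMIs, and it limits the smaller classes further, with 7 members in eosinophil-like, 10 in melanoma-like and 12 in B-like cells.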
